A study of Mus musculus with 10 samples.

Results

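The Toll-like receptors and Cd14 were examined in microglia of the mouse cortex. The set was taken by gene symbol and holds 9 receptors (Tlr1, Tlr2, Tlr3, Tlr4, Tlr6, Tlr7, Tlr8, Tlr9 and Tlr13) and the co-receptor Cd14. These are 10 of the 24421 gene symbols in the count files, and all 10 passed the filter on low counts that left 18727 genes for testing. The series holds 10 RNA-seq libraries from 9-month-old mice: 3 of wild type (WT), 4 of APP/PS1 and 3 of APP/PS1 injected with N-AS (APP/PS1+N-AS). APP/PS1 mice carry transgenes for human APP with the Swedish mutation and for a mutant presenilin-1, and they deposit amyloid in the brain. The promoters of these transgenes are not given in the sources used here. N-AS (N-acetyl sphingosine) was given under the skin at 30 mg/kg every day for 8 weeks from the age of 7 months. In the scheme of the study the other APP/PS1 mice were given vehicle, which the labels of these libraries do not name. Microglia were taken from papain-dissociated cortex by density gradient, and each library is a pool of 2 mice. Total counts were 8805804 to 19432075 per library.

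Toll-like receptors are membrane proteins that recognise molecules of microbes and of damaged cells. Those at the cell surface bind lipids and lipoproteins, and those in endosomes bind nucleic acids. Almost all of them signal through the adaptor Myd88 to NF-kB and induce cytokines and chemokines. In the brain microglia express many of them, and Cd14, Tlr2 and Tlr4 have been studied as receptors through which microglia meet aggregated amyloid.

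Tlr1 and Tlr6 are neighbours on the minus strand of chromosome 5 (GRCm38, chr5:64924679-64933563 and chr5:64952031-64960097). Tlr7 and Tlr8 are neighbours on the minus strand of the X chromosome (chrX:167304929-167330558 and chrX:167242696-167264329). Tlr13 also lies on the X chromosome (chrX:106143204-106160493, plus strand). Tlr2 is at chr3:83836272-83841767 (minus strand), Tlr3 at chr8:45395665-45411080 (minus strand), Tlr4 at chr4:66827584-66930284 (plus strand) and Tlr9 at chr9:106222598-106226883 (plus strand). The stretches upstream of all annotated exons are shown for 4 receptors whose behaviour differed. Tlr13 and Tlr1 were higher in APP/PS1, Tlr9 was separated between groups without passing the corrected test, and Tlr8 had few reads. They are RefSeq promoter sequences (GRCm38.p6), written 5′ to 3′ on the strand of the gene, with matches to GAGGAA (the core of the site of PU.1, a factor that myeloid cells need) and to TGANTCA (the AP-1 site) in capitals. The capitals in Tlr8 are the reverse complement of GAGGAA.
Tlr13 (chrX:106143025-106143203): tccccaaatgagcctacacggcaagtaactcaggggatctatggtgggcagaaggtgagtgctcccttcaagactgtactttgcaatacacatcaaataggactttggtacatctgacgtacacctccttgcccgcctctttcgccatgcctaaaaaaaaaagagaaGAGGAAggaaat
Tlr1 (chr5:64933601-64933808): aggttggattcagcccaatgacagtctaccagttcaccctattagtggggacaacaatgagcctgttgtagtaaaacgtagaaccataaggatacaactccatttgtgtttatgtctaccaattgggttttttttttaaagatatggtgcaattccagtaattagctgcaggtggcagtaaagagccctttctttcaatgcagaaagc
Tlr9 (chr9:106222348-106222597): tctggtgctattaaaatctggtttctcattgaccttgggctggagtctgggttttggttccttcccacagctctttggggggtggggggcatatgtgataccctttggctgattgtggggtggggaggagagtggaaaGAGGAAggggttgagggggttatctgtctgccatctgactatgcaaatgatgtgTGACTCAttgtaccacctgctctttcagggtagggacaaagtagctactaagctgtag
Tlr8 (chrX:167264330-167264579): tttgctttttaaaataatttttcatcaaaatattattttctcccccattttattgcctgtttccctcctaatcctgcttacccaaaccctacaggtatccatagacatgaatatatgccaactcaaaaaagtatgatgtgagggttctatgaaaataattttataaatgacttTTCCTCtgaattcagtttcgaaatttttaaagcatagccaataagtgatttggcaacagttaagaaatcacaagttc

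RefSeq promoter windows were used for 7 of the 10 genes, and 4 motifs were searched in them on both strands. Tlr4 and Tlr7 had no window in the source, and Cd14 was left out with all windows of chromosome 18. Each window held 250 bases. GAGGAA stood in the windows of Tlr1 (start site 1), Tlr8, Tlr9 and Tlr13, and in 23.3% of all 32851 promoter windows of the mouse. The match of Tlr1 lies outside the stretch printed above, which leaves out annotated exons. The NF-kB-type string GGGNNNNNCC matched 2 times in the windows of Tlr2 and of Tlr3 and 1 time at a start site of Tlr6, against 45.8% of all windows with a match. TGANTCA was in the Tlr9 window and in 6.75% of all windows. The interferon-type string GAAANNGAAA matched 2 times at the other start site of Tlr6 and in 2.98% of all windows. These matches describe letters in a window and do not separate receptors that differed between groups from those that did not.

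Several libraries stood apart in ways that touch these genes. The study's methods state that only male mice were used, and 3 of the receptors are X-linked. Xist, the transcript of the inactive X chromosome, was at 29 to 37 reads in WT libraries 1 to 3 and APP/PS1+N-AS library 3, whose 4 Y-linked genes summed to 176 to 197 CPM (counts scaled to a common library total). APP/PS1 libraries 3 and 4 held Xist at 579 and 533 CPM with Y-linked genes at 0.888 and 0.619 CPM. The other 4 transgenic libraries held both, with Xist at 453 to 482 CPM and Y-linked genes at 31.0 to 57.0 CPM. These reads go against the stated sex in 6 transgenic libraries, and the library labelled APP/PS1+N-AS 3 has the sex-linked reads of the WT libraries. Pools of both sexes and exchanged libraries cannot be told apart here. Several results that rest on APP/PS1+N-AS library 3 are also given without it. The content of sex-linked reads and the genotype cannot be told apart between WT and APP/PS1, and results are also given for the libraries with both kinds of reads. Over the 653 X-linked genes tested the median log2 fold change of APP/PS1 against WT was -0.03. Of these, 21 were called higher and 0 lower in edgeR, where 500 and 149 of all 18727 genes tested were. The median and these counts do not show whether single genes, such as the 3 X-linked receptors, go along with the sex-linked reads.

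The label microglia was checked with 14 microglial marker genes, all of which were detected in every group. Their summed level was 892 to 1263 CPM in WT, 2499 to 3106 CPM in APP/PS1 and 1605 to 2020 CPM in APP/PS1+N-AS. Of the 14, 10 were higher in APP/PS1 than in WT, where 2.67% of all genes tested were called higher, and the median log2 fold change of the 14 was 1.35. Markers of other cells were present as well, with oligodendrocyte genes at 1796 to 6379 CPM, neuronal genes at 1267 to 4505 CPM and astrocyte genes at 2017 to 3592 CPM over the 10 libraries. WT library 3 stood apart from WT libraries 1 and 2, with neuronal genes at 4505 CPM against 1267 and 1525, oligodendrocyte genes at 2218 CPM against 6273 and 6379 and endothelial genes at 377 CPM against 867 and 1054. The mean log2 CPM of the 6 astrocyte markers was 6.15 ± 0.05 in WT (SD, n = 3), 6.99 ± 0.33 in APP/PS1 (n = 4) and 6.64 ± 0.14 in APP/PS1+N-AS (n = 3). In APP/PS1 against WT 1 of these 6 passed the test, higher, and their median log2 fold change was 0.03. The 6 oligodendrocyte markers had a median log2 fold change of -1.17 in APP/PS1 against WT, and 1 of them passed the test. None of the 6 border macrophage and 5 monocyte markers passed in edgeR, and 1 monocyte marker was lower at an unadjusted p under 0.05. The 5 neutrophil genes counted summed to 93.2 CPM in APP/PS1 library 3 and to 2.95 to 17.0 CPM in the others. In bulk RNA fewer cells of a type and less RNA per cell cannot be told apart, and the part of these shifts in the results on the receptors was not tested beyond the values given with them.

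To compare the genes with each other, CPM were divided by the length of the annotated exons in kb. In WT microglia Tlr7 and Cd14 were the most abundant, at 3.95 ± 0.65 and 3.62 ± 0.45 CPM per kb (SD, n = 3), and their libraries overlapped. Tlr3 followed at 2.47 CPM per kb and was separated from Cd14 above and Tlr13 below in all libraries. Tlr13 (1.49), Tlr4 (1.26) and Tlr9 (1.23 CPM per kb) formed a middle group in which neighbours overlapped, and the range of Tlr9 also overlapped that of Tlr2 at 0.84 CPM per kb. Tlr1 and Tlr6 stood at 0.45 and 0.40 CPM per kb without a separation between them. Tlr8 was the lowest at 0.18 CPM per kb. The libraries also held markers of other cells, and which cells gave the reads of each gene, Tlr3 among them, was not tested.

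The order was different in APP/PS1 microglia. Cd14 ranked first at 22.5 ± 2.06 CPM per kb (SD, n = 4), ahead of Tlr7 at 14.2 ± 3.25, Tlr2 at 7.90 ± 1.29 and Tlr13 at 4.40 ± 0.52 CPM per kb. Each of these 4 was separated in all libraries from the next in the order. Tlr3 (2.52), Tlr9 (1.93) and Tlr4 (1.56 CPM per kb) came next and overlapped with their neighbours. Tlr2 thus moved from the seventh place in WT to the third in APP/PS1. The first 5 places in APP/PS1+N-AS were held by the same genes as in APP/PS1, from Cd14 at 7.89 to 16.2 CPM per kb to Tlr3 with a mean of 2.62 CPM per kb. Here Cd14 overlapped with Tlr7, and Tlr13 overlapped with Tlr2 above it and Tlr3 below it.

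**Figure D1:**
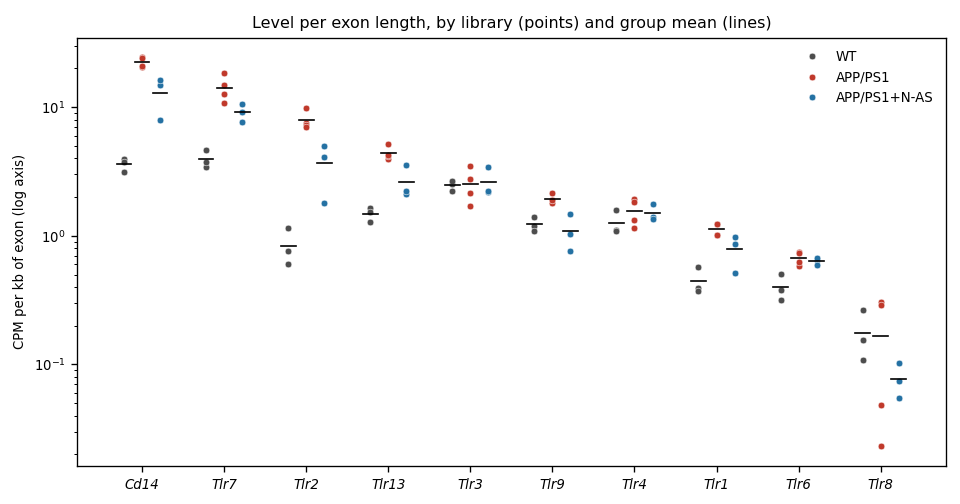
Level of the 10 genes in CPM per kb of exon on a log axis, with a point for each library (3 WT, 4 APP/PS1, 3 APP/PS1+N-AS) and a line at each group mean. Cd14, Tlr7, Tlr2 and Tlr13 stood highest in APP/PS1, at group means of 22.5, 14.2, 7.90 and 4.40 CPM per kb, and Tlr8 lowest in every group.

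The first comparison asked how the receptors differ between APP/PS1 and WT microglia. Tlr2, Cd14, Tlr7, Tlr13 and Tlr1 were higher in APP/PS1, by 9.75-, 6.26-, 3.57-, 2.96- and 2.48-fold, and none was lower. These are 5 of 10 genes called at an adjusted p under 0.05 (edgeR quasi-likelihood test), where 2.67% of all genes tested were called higher. In 7 of 10 genes every APP/PS1 library lay above every WT library, as in 8.15% of all genes tested. The median log2 fold change of the 10 genes was 1.01, and that of all genes tested was -0.07. Tlr3, Tlr4 and Tlr8 showed no difference beyond the spread of the libraries.

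**Figure D2:**
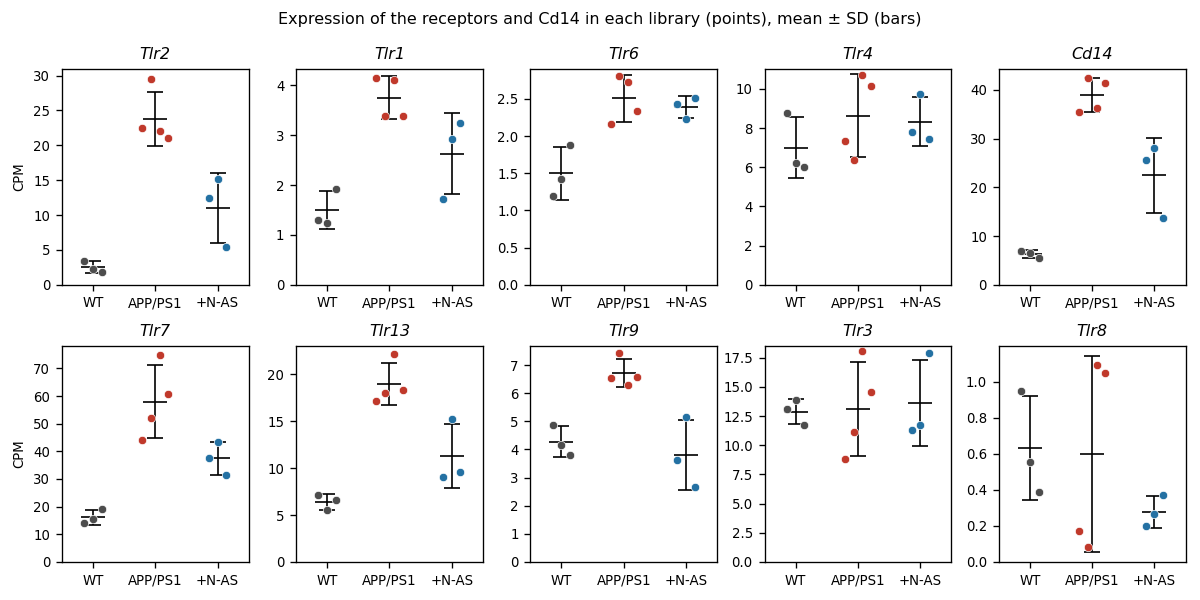
CPM of the 10 genes in each library (points) with the group mean and SD (bars). Tlr2, Cd14, Tlr7 and Tlr13 in the APP/PS1 libraries all lie above the WT libraries, with the APP/PS1+N-AS libraries between them for Tlr2, Cd14, Tlr7 and Tlr13, while WT and APP/PS1 overlap for Tlr3, Tlr4 and Tlr8.

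Among the surface receptors Tlr2, which binds bacterial lipoproteins together with Tlr1 or Tlr6, showed the widest separation. Tlr2 was at 3.45, 2.29 and 1.83 CPM in the WT libraries and at 22.5, 29.6, 22.1 and 21.0 CPM in the APP/PS1 libraries. The lowest APP/PS1 library was above 6 times the highest WT library. The log2 fold change was 3.29 (SE 0.36, edgeR adjusted p = 0.00101). The APP/PS1+N-AS libraries, at 12.5, 15.2 and 5.39 CPM, lay between the other groups, and library 3 was the lowest of them.

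Tlr1 and Tlr6, the partners of Tlr2, were expressed at lower levels. Tlr1 was at 1.31, 1.24 and 1.93 CPM in WT and at 4.14, 3.39, 4.10 and 3.38 CPM in APP/PS1. The groups did not overlap, and the log2 fold change was 1.31 (SE 0.30, edgeR adjusted p = 0.0434). This call was near the threshold: of 7 fits with a WT or APP/PS1 library removed, 1 kept it, with adjusted p between 0.0305 and 0.123. It was lost without WT library 1 or 2 and without any of the APP/PS1 libraries, with log2 fold changes between 1.18 and 1.37. Tlr6 was at 1.19, 1.42 and 1.88 CPM in WT and at 2.16, 2.81, 2.73 and 2.33 CPM in APP/PS1. These ranges were also separate, but the log2 fold change of 0.72 (SE 0.28) did not pass the correction in edgeR (unadjusted p = 0.0243, adjusted p = 0.206). Tlr1 and Tlr6 share 259 stretches of 100 bases, which are 7.89% of Tlr1 and 7.09% of Tlr6, so that reads from these stretches could not be assigned to either gene with certainty. No other gene of the set shared such a stretch with another.

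Cd14 hands lipopolysaccharide to the complex of Tlr4 and Ly96 (MD-2) and also assists Tlr2. Cd14 lies on chromosome 18. It was at 6.89, 6.50 and 5.40 CPM in WT and at 35.6, 42.5, 36.2 and 41.5 CPM in APP/PS1, with a coefficient of variation of 9.14% among the APP/PS1 libraries. The log2 fold change was 2.65 (SE 0.24, edgeR adjusted p = 0.000458). Tlr4 itself was at 8.80, 6.19 and 6.03 CPM in WT and at 7.34, 6.36, 10.7 and 10.1 CPM in APP/PS1. The groups overlapped, and the log2 fold change of Tlr4 was 0.32 (SE 0.23, edgeR adjusted p = 0.533). Ly96 did not pass the test either, at a log2 fold change of -0.24 (SE 0.23, edgeR adjusted p = 0.651).

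Of the endosomal receptors, Tlr7, a sensor of single-stranded RNA, was at 13.9, 15.4 and 19.1 CPM in WT and at 44.1, 51.9, 75.0 and 60.7 CPM in APP/PS1. The log2 fold change was 1.84 (SE 0.21, edgeR adjusted p = 0.00109). Tlr13, which in mice recognises bacterial ribosomal RNA, was at 7.13, 5.51 and 6.61 CPM in WT and at 17.2, 18.0, 22.2 and 18.4 CPM in APP/PS1. Its log2 fold change was 1.57 (SE 0.21, edgeR adjusted p = 0.00289). Both genes were separated in all libraries, and for both the highest APP/PS1 value came from library 3. Together Tlr7 and Tlr13 made up 38.5%, 41.3% and 48.2% of the counts of the 9 receptors in WT and 54.2%, 53.5%, 59.9% and 57.3% in APP/PS1.

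Tlr9, the sensor of unmethylated CpG DNA, was at 4.87, 4.15 and 3.81 CPM in WT and at 6.56, 7.44, 6.29 and 6.57 CPM in APP/PS1. The libraries were separate, but the log2 fold change of 0.66 (SE 0.23) did not pass the correction in edgeR (unadjusted p = 0.0164, adjusted p = 0.170). Tlr3, a receptor for double-stranded RNA, was at 13.1, 13.9 and 11.7 CPM in WT and spread from 8.80 to 18.0 CPM in APP/PS1, on either side of the WT values (log2 fold change 0.03, SE 0.25, edgeR adjusted p = 0.963). An antisense gene, Gm45542, overlaps 381 exon bases of Tlr3, and the strand setting of the counting is not given in the sources used here. Tlr8, the X-linked neighbour of Tlr7, had 1 to 22 reads per library. It was at 0.951, 0.557 and 0.386 CPM in WT and at 0.173, 0.0826, 1.09 and 1.05 CPM in APP/PS1. The APP/PS1 libraries fell on either side of the WT libraries, with 2 and 1 reads in APP/PS1 libraries 1 and 2 and 16 and 22 in libraries 3 and 4. The log2 fold change of Tlr8 was 0.03 (SE 0.76).

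Tlr2, Cd14, Tlr7 and Tlr13 kept the call in all 7 fits that left out a WT or APP/PS1 library. Without WT library 3 their log2 fold changes were 3.10, 2.55, 1.99 and 1.61, and that of Tlr1 was 1.56. With the transgenic side limited to the libraries that hold both Xist and Y-linked reads, the log2 fold changes were 3.43 for Tlr2, 2.66 for Cd14, 1.58 for Tlr7 and 1.47 for Tlr13, all with an adjusted p under 0.05 in edgeR. With Y-linked reads as a covariate, which were at 177 to 197 CPM in WT and at 57.0 CPM or less in APP/PS1, the log2 fold changes were 2.23, 1.78, 1.36 and 1.21, and none of the 10 genes was called (for these 4, edgeR adjusted p = 0.485, 0.145, 0.700 and 0.864).

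The libraries are numbered 1 to 10 across the groups, and the lists of detected genes differed along these numbers. Libraries 2 to 6 had 2940 to 3985 genes without a read, against 566 to 1740 in library 1 and libraries 7 to 10. The labels do not call these numbers batches, and the values were split at number 6. This split does not follow the detected genes, since library 1 (WT), with 566 genes without a read, falls in the first subset. Agreement between the subsets therefore does not control for the difference in detected genes. Within numbers 1 to 6 (2 libraries a group) and within numbers 7 to 10 (2 APP/PS1 and 1 WT library), APP/PS1 exceeded WT in log2 CPM by 3.14 and 3.46 for Tlr2, by 2.51 and 2.81 for Cd14, by 1.70 and 1.81 for Tlr7 and by 1.47 and 1.59 for Tlr13. For Tlr4 the differences were -0.11 and 0.78 and for Tlr3 -0.44 and 0.46, so that these genes pointed in opposite directions in the subsets. Among the APP/PS1 libraries, Tlr3, Tlr4, Tlr7, Tlr8 and Tlr13 were highest in libraries 3 and 4, the ones with almost no Y-linked reads. Tlr7 was at 75.0 and 60.7 CPM there, against 44.1 and 51.9 CPM in APP/PS1 libraries 1 and 2.

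The second comparison asked how N-AS injection changes the receptors in APP/PS1 microglia. No gene of the set, and none of all genes tested (0%), passed the corrected test in edgeR, and the same was found with limma. DESeq2 called 79 of all genes and none of the set. At an unadjusted p under 0.05 in edgeR, 758 of all genes were lower and 895 higher. Tlr2, Tlr9, Cd14, Tlr13 and Tlr7 had an unadjusted p under 0.05 and were below APP/PS1, 5 of 10 against 4.05% of all genes tested. In 6 of 10 genes, these 5 and Tlr1, every APP/PS1+N-AS library lay below every APP/PS1 library, as in 6.46% of all genes tested. Of the 10 log2 fold changes 9 were below 0, where 51.4% of all genes tested were below 0. Their median was -0.69, and that of all genes tested was -0.01. All 14 microglial markers were also below 0 in this comparison, with a median of -0.53. Of these 14, 8 were lower at an unadjusted p under 0.05 in edgeR. In 7 of the 14 every APP/PS1+N-AS library lay below every APP/PS1 library.

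**Figure D3:**
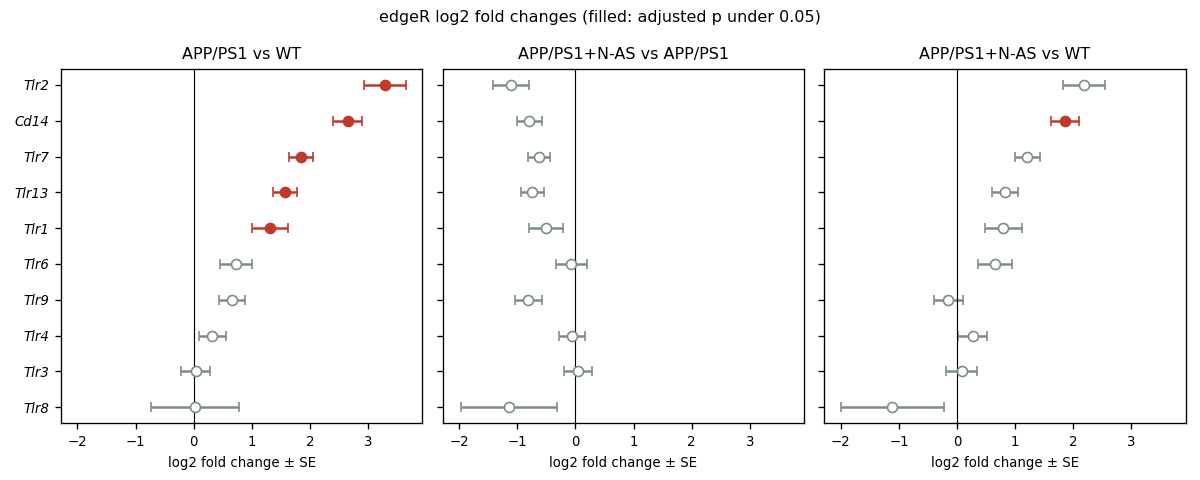
Log2 fold change with its SE (bars) for the 10 genes in the 3 comparisons, from edgeR. Filled points passed an adjusted p under 0.05, which were Tlr2, Cd14, Tlr7, Tlr13 and Tlr1 in APP/PS1 against WT, none in APP/PS1+N-AS against APP/PS1, and Cd14 in APP/PS1+N-AS against WT.

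Among the surface receptors, the log2 fold change of Tlr2 was -1.11 (SE 0.31, unadjusted p = 0.00476), and the adjusted p in edgeR was 0.494 for Tlr2 and for the other 4 genes below. For Cd14, at 25.6, 28.0 and 13.7 CPM in the injected mice, the log2 fold change was -0.79 (SE 0.22, unadjusted p = 0.00395 in edgeR). Library 3 of the injected mice was the lowest for both. Without it the values were -0.77 for Tlr2 and -0.53 for Cd14, with unadjusted p = 0.00768 and 0.00610 in edgeR. Tlr1 was at 1.71, 2.92 and 3.25 CPM (log2 fold change -0.51, SE 0.29), and its highest library lay just under the lowest APP/PS1 library at 3.38 CPM. Tlr4, at 7.77, 9.75 and 7.46 CPM, and Tlr6, at 2.44, 2.23 and 2.51 CPM, overlapped with APP/PS1 (log2 fold changes -0.06 and -0.07).

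Of the endosomal receptors, Tlr9 was at 3.62, 5.14 and 2.66 CPM in the injected mice (log2 fold change -0.81, SE 0.23, unadjusted p = 0.00516 in edgeR). Its mean of 3.81 CPM was under the 4.28 CPM of WT, with overlapping libraries. This order rests on injected library 3, without which the log2 fold change of Tlr9 against WT turned from -0.15 to 0.076. Tlr13 was at 9.03, 15.3 and 9.60 CPM (log2 fold change -0.74, SE 0.20, unadjusted p = 0.00352 in edgeR). Tlr7 was at 37.7, 43.3 and 31.4 CPM (log2 fold change -0.63, SE 0.19, unadjusted p = 0.00815 in edgeR). The highest injected library for Tlr7 was close to the lowest APP/PS1 library at 44.1 CPM. Without injected library 3 the log2 fold changes against APP/PS1 were -0.60 for Tlr9, -0.63 for Tlr13 and -0.51 for Tlr7. Tlr3, at 11.3, 11.7 and 17.9 CPM, overlapped with APP/PS1 (log2 fold change 0.05, SE 0.25). Tlr8 was at 0.198, 0.265 and 0.369 CPM, from 3 to 5 reads per library, and its log2 fold change of -1.15 had an SE of 0.83.

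Of the transgenic libraries, numbers 1 and 2 of each group carried both Xist and Y-linked reads, so that both groups hold both kinds of reads there. These 4 libraries are also numbers 3 to 6 of the 10, and the sex-linked reads and the library number cannot be told apart in this subset. In these 4 libraries the log2 fold changes of APP/PS1+N-AS against APP/PS1 were -0.91 for Tlr2, -0.67 for Tlr9, -0.54 for Cd14, -0.53 for Tlr13 and -0.24 for Tlr7. In this set Tlr2, Cd14 and Tlr9 had an unadjusted p of 0.0124, 0.0236 and 0.0448 in edgeR, and Tlr13 and Tlr7 of 0.0850 and 0.263. Within library numbers 7 to 10 (1 injected and 2 APP/PS1 libraries) the differences in log2 CPM were wider, at -1.97 for Tlr2, -1.50 for Cd14, -1.23 for Tlr9, -1.10 for Tlr7 and -1.06 for Tlr13, and there the groups differed in sex-linked reads.

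The third comparison set the injected APP/PS1 mice against WT. It shares its libraries with the other comparisons. Cd14 was the 1 gene of 10 that passed the corrected test, with a log2 fold change of 1.85 (SE 0.25, edgeR adjusted p = 0.0187), where 0.176% of all genes tested were called higher. This call was kept in 2 of the 6 fits that left out a WT or injected library, with adjusted p between 0.000398 and 0.127. It was lost without WT library 1 or 2 and without injected library 1 or 2. Tlr2 and Tlr7, at log2 fold changes of 2.18 (SE 0.37) and 1.21 (SE 0.21), had an adjusted p of 0.0542 and 0.0622 in edgeR. Without injected library 3 they were 2.53 and 1.35 and passed (edgeR adjusted p = 0.00194 and 0.0314). Tlr13 had a log2 fold change of 0.83 (SE 0.22, edgeR adjusted p = 0.299). In 5 of 10 genes all injected libraries lay above all WT libraries (4.9% of all genes tested) and in 1, Tlr8, all lay below (3.91%).

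Since the microglial markers differed between groups as well, each gene was set against their mean log2 CPM in the same library. This mean was higher by 1.17 in APP/PS1 than in WT (exact permutation test, two-sided p = 0.0286), and was lower by 0.50 in APP/PS1+N-AS than in APP/PS1 (two-sided exact p = 0.0286). The smallest p that 4 against 3 libraries allow is 0.0286. Relative to the markers Tlr2 and Cd14 were still higher in APP/PS1, by 2.03 and 1.44 on the log2 scale, with separate libraries. Tlr7 was higher by 0.65 with separate libraries, and Tlr13 and Tlr1 differed by 0.37 and 0.10 with overlapping libraries. Tlr3 was lower by 1.19, Tlr4 by 0.89 and Tlr6 by 0.46 relative to the markers, each with separate libraries. The sizes depend on the markers chosen. Against the mean of 5 markers that leave out the homeostatic genes, which was higher by 1.61 in APP/PS1, Tlr2 and Cd14 differed by 1.59 and 1.00 and Tlr7 by 0.21. The values of Tlr13 and Tlr1 turned to -0.07 and -0.33.

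For Tlr2, Cd14, Tlr3 and Tlr6 the two-sided exact permutation p was 0.0286, and no value passed the correction over the 30 tests of this kind (lowest adjusted p = 0.200). The smallest exact permutation p is 0.0286 for 4 against 3 libraries and 0.1 for 3 against 3. An adjusted p under 0.05 would need most of the 30 tests at 0.0286, so the correction could hardly be passed. Between APP/PS1+N-AS and APP/PS1 the libraries overlapped for all 10 genes after the markers were subtracted. The differences there ran from -0.72 for Tlr2, -0.35 for Cd14 and -0.34 for Tlr9 to 0.57 for Tlr3, and that of Tlr7 was -0.11. Those of Tlr2, Cd14 and Tlr3 rest in part on injected library 3. Relative to the markers Tlr2 was at -2.77, -2.61 and -3.69 in injected libraries 1 to 3 (APP/PS1 mean -2.31). In the same order Cd14 was at -1.74, -1.73 and -2.37 (APP/PS1 mean -1.59). Tlr3 was at -2.90, -2.98 and -1.99 (APP/PS1 mean -3.20). The mean of the 5 markers was lower by 0.64 in APP/PS1+N-AS than in APP/PS1, and relative to it Tlr2 was at -0.57, Cd14 at -0.21 and Tlr7 at 0.03, so that the sign of Tlr7 turned.

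**Figure D4:**
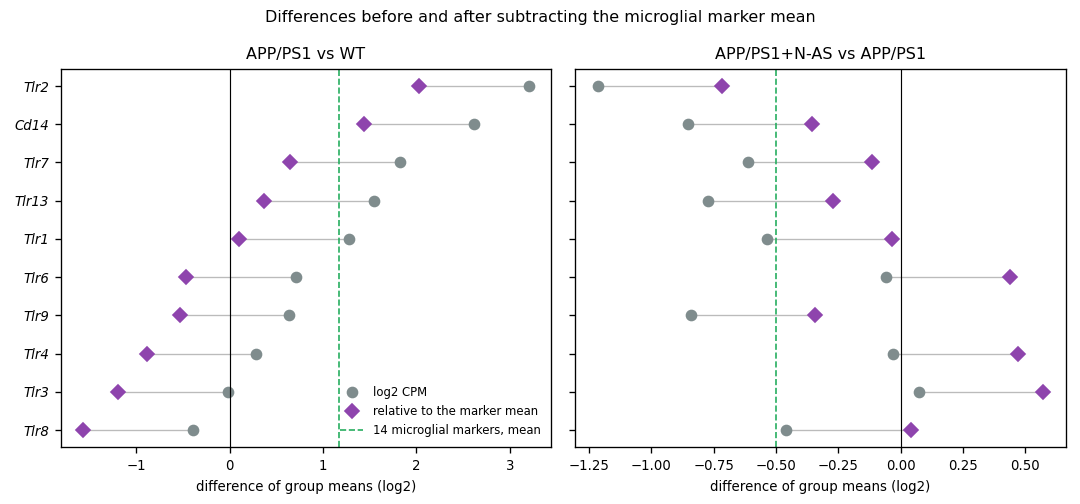
Difference of group means in log2 CPM (circles) and after subtraction of the mean log2 CPM of 14 microglial markers (diamonds), for APP/PS1 against WT and APP/PS1+N-AS against APP/PS1. The dashed line is the difference of the marker mean, 1.17 and -0.50. Relative to it Tlr2 (2.03) and Cd14 (1.44) remain furthest to the right in APP/PS1 against WT.

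Count ratios within a library do not depend on the scaling between libraries and were compared for genes that act together. Cd14 and Tlr4 had similar counts in WT, with log2 ratios of -0.35, 0.07 and -0.16, and Cd14 exceeded Tlr4 in APP/PS1, at 2.27, 2.73, 1.75 and 2.03. The difference was 2.34 on the log2 scale (two-sided exact permutation p = 0.0286). The log2 ratio in APP/PS1+N-AS was 1.72, 1.52 and 0.87, below all APP/PS1 libraries, and the difference from APP/PS1 was -0.83 (two-sided exact permutation p = 0.0571). Without injected library 3 this difference was -0.58. The ratio of Ly96 to Tlr4 was lower in APP/PS1 than in WT by 0.56 on the log2 scale, with separate libraries.

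The partners of Tlr2 did not keep pace with it. The log2 ratio of Tlr6 to Tlr2 was -1.49, -0.67 and 0.04 in WT and -3.36, -3.38, -3.00 and -3.16 in APP/PS1, a difference of -2.51. For Tlr1 to Tlr2 the difference was -1.93. Both had a two-sided exact permutation p of 0.0286. Without WT library 3 the differences were -2.14 for Tlr6 and -1.53 for Tlr1. The ratio of Tlr6 to Tlr2 in APP/PS1+N-AS was -2.34, -2.75 and -1.09, above all APP/PS1 libraries by a mean of 1.16 (two-sided exact permutation p = 0.0286). Without injected library 3 this difference was 0.68. The ratio of Tlr1 to Tlr2 overlapped between APP/PS1+N-AS and APP/PS1, with a difference of 0.67 (two-sided exact permutation p = 0.314). It was 0.04 without injected library 3. The ratio of Tlr7 to Tlr8 was higher in APP/PS1 by 2.38 on the log2 scale (two-sided exact permutation p = 0.0571), but it rests on 1 to 22 reads of Tlr8. Over the 15 ratio tests the lowest adjusted p was 0.0857. An adjusted p under 0.05 would need most of the 15 tests at the smallest possible p, so this correction could hardly be passed either.

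**Figure D5:**
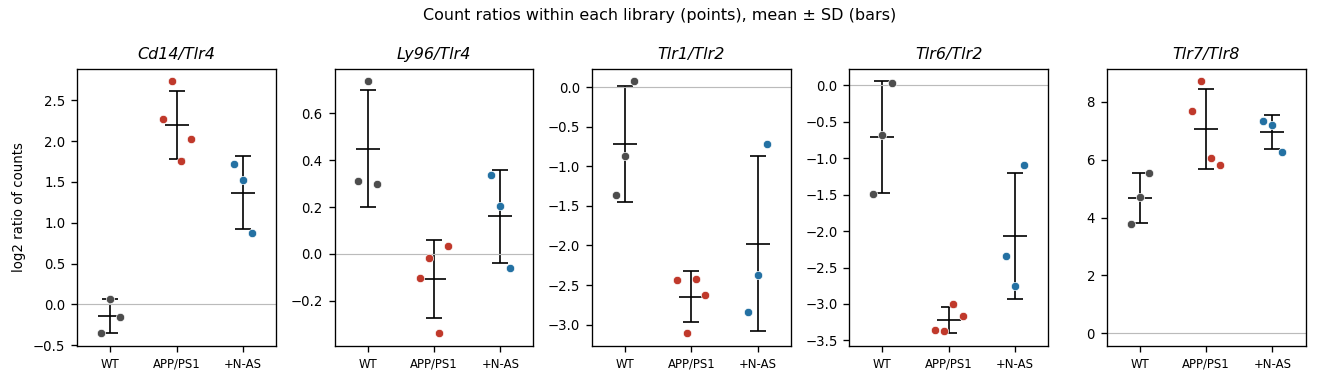
Log2 ratio of counts within each library (points) with group mean and SD (bars) for 5 gene pairs. Cd14/Tlr4 was above 1.7 in all APP/PS1 libraries and below 0.1 in all WT libraries, and Tlr6/Tlr2 was below -2.9 in all APP/PS1 libraries.

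The genes around the receptors were taken from lists by role. Their values were not taken relative to the microglial markers. The mean log2 CPM of the 14 markers was higher by 1.17 in APP/PS1 than in WT. It was lower by 0.50 in APP/PS1+N-AS than in APP/PS1. The mean of the 5 markers without the homeostatic genes was higher by 1.61 in APP/PS1 than in WT. The part of these shifts in the values of the lists was not tested. Of 12 co-receptors and genes for receptor folding and trafficking, 5 were higher in APP/PS1 than in WT and none lower (edgeR), where 2.67% of all genes tested were called higher. Cd180 and Ly86, which form a complex related to that of Tlr4 and Ly96, had log2 fold changes of 2.22 (SE 0.22) and 2.47 (SE 0.28). Unc93b1, the chaperone that carries the nucleic acid receptors to endosomes, was higher by 1.27 (SE 0.18, edgeR adjusted p = 0.00359), the exonuclease Pld4 by 1.16 and the protease Lgmn by 1.04. The median of the 12 was 0.37. In APP/PS1+N-AS against APP/PS1 Cd180 and Ly86 had log2 fold changes of -1.19 and -1.12 (edgeR adjusted p = 0.417 and 0.478), and Unc93b1 of -0.49 (adjusted p = 0.510).

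Of 6 adaptors, 1 was higher in APP/PS1, Pik3ap1 at 1.08 (SE 0.15), which links the receptors to PI3-kinase. The same background of 2.67% of all genes called higher applies to this and the following lists. Myd88 had a log2 fold change of 0.28 (SE 0.18, edgeR adjusted p = 0.467), and Ticam2, which bridges Tlr4 to Ticam1, of 1.04 (SE 0.32, edgeR adjusted p = 0.116). None of the 14 kinases and ubiquitin ligases passed in edgeR (3 higher and 1 lower at an unadjusted p under 0.05), and their median was 0.03, with Irak4 at 0.67 and Map3k7 at -0.36 among those of lowest p. Of 8 transcription factors, 3 were higher, Irf5 at 1.28, Rel at 0.97 and Nfkb2 at 0.88 (edgeR adjusted p = 0.0140, 0.0497 and 0.0493). The calls of Rel and Nfkb2 were just under the threshold. Of 10 inhibitors, 1 was higher, Tnfaip3 (A20) at 1.95 (SE 0.31, edgeR adjusted p = 0.00698).

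Of 14 inducible targets 12 could be tested, and 6 were higher in APP/PS1 and none lower, where 2.67% of all genes tested were called higher. Ccl4, Ccl3 and Il1b, which encode a pair of chemokines and a cytokine, had log2 fold changes of 2.69, 2.65 and 2.30, and the cytokine genes Tnf and Il1a of 2.24 and 1.59. The median of the 12 was 1.90. In APP/PS1+N-AS against APP/PS1 no gene of these lists passed the corrected test in edgeR, and 11 of the 12 targets had log2 fold changes below 0 with a median of -0.48, where 51.4% of all genes tested were below 0. Ccl3 and Ccl4 were still higher in APP/PS1+N-AS than in WT, by 2.09 and 1.82 (edgeR adjusted p = 0.0415 and 0.0256).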

How the data were processed

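Cortical microglia of WT, APP/PS1 and APP/PS1+N-AS mice were profiled by stranded total RNA-seq after removal of ribosomal RNA. The authors deposited a file of raw read counts per gene symbol for each library. Per the labels and the submitters' processing notes, TopHat, edgeR and mm10 were used, and the study's methods name bedtools and Bioconductor for counting; versions and the strand setting are not given in the sources used here. Lines that share a symbol (103 lines of 43 symbols) were summed. Groups were taken from the sample titles. After filterByExpr (5694 genes left out), counts were scaled by TMM and tested in 1 model of the 3 groups with the quasi-likelihood test of edgeR 4.0.16 (R 4.3.3), with Benjamini-Hochberg adjustment over 18727 genes and a threshold of 0.05. The SE is the size of the log2 fold change divided by the square root of F. DESeq2 1.42.0 and limma 3.58.1 (voom with quantile normalization) served as alternatives. CPM are on TMM-scaled library sizes. Ratios used counts plus 0.5, and levels relative to markers used log2 CPM with a prior count of 2. Both were tested by two-sided exact permutation of libraries (Python 3, numpy).

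Libraries of a group differed beyond counting noise (chi-square per degree of freedom 12.2 to 126). Reads carry no molecular identifiers, so counts of reads cover counting error only. Libraries of the same title number were compared by their deviations. The r was 0.14 to 0.31 in 3 pairs of APP/PS1+N-AS with APP/PS1. It was -0.14 to 0.35 for APP/PS1+N-AS with WT and -0.49 to 0.44 for APP/PS1 with WT. Title numbers 1 and 2 lie in library numbers 1 to 6 and title number 3 in 7 to 10. These r therefore do not show a pairing by title number. The fit was tested on simulated data. Lengths and positions came from the GENCODE annotation of GRCm38, and promoters from RefSeq. All genes of the set are reported. Of each list of related genes, up to 5 of lowest p in any comparison are named, plus Ly96, Unc93b1 and Myd88. The genes, the lists and the settings were chosen with earlier results of these data known.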

Additional observations from a re-analysis of the deposited data

How the results depend on the processing

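In APP/PS1 against WT, 5 of the 10 genes passed the test. The count was 4 to 5 when a library was left out and 0 with Y-linked reads as a covariate. In APP/PS1+N-AS against APP/PS1 no gene passed in any corrected fit, and 5 did at an unadjusted p. In APP/PS1+N-AS against WT, where Cd14 passed alone, the count was 3 with DESeq2, without a filter, with library number as a covariate and in the libraries with both Xist and Y-linked reads, 2 with total counts or with at least 10 counts in every library, 0 with the replicate block, with the 2 groups alone or with Y-linked reads as a covariate, 6 at an unadjusted p, and 0 to 3 when a library was left out. The settings on Xist and Y-linked reads were chosen after the data were seen. Relative to the microglial markers, 4 of 30 tests had an unadjusted p under 0.05, and 9 did with 5 markers that leave out the homeostatic genes. With the replicate block Cd14 in APP/PS1+N-AS against WT had a log2 fold change of 1.81 (adjusted p = 0.0577) and Tlr1 in APP/PS1 against WT one of 1.40 (adjusted p = 0.0876). The block changed no other call of the 10 genes. For WT libraries and those of the same title number the mean r was -0.02 with APP/PS1 and 0.15 with APP/PS1+N-AS. Of 3 pairs each, 1 and 2 had an r above 0.1. Tlr1 in APP/PS1 against WT also lost its call with limma (adjusted p = 0.0961), with total counts (0.0741) and with the 2 groups alone (0.0650). The cause of these changes was not tested.

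Signs turned only for log2 fold changes that passed no test. In APP/PS1 against WT, Tlr3 was -0.012 with limma, -0.083 with the replicate block, -0.093 with library number, -0.36 in the libraries with both kinds of sex-linked reads and -0.15 to 0.18 when a library was left out. Tlr4 was -0.0053 in the same libraries and -0.20 with the Y-linked covariate. Tlr8 was -0.78 with the block, -0.59 with library number, -0.69 with the Y-linked covariate and -0.25 to 0.40 when a library was left out. For APP/PS1+N-AS against APP/PS1, Tlr3 was -0.0021 with total counts, -0.11 with the Y-linked covariate and -0.18 to 0.23 when a library was left out. Tlr4 was 0.045 with the block, 0.36 in the libraries with both kinds of reads, 0.16 with the Y-linked covariate and -0.19 to 0.061 when a library was left out, and Tlr6 was 0.036 with limma. For APP/PS1+N-AS against WT, Tlr3 was -0.14 and Tlr9 0.064 in the libraries with both kinds of reads, Tlr4 was -0.044 with the Y-linked covariate, and Tlr3 and Tlr9 ran from -0.13 to 0.20 and from -0.42 to 0.076 when a library was left out. Tlr8 had 1 to 22 reads per library.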

Other observations

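The mouse has 3 further Toll-like receptors, and all were at low levels in these libraries. Tlr5, a receptor for flagellin, was at 1.31 ± 0.53 CPM in WT (SD, n = 3), 1.56 ± 0.44 CPM in APP/PS1 (n = 4) and 0.552 ± 0.176 CPM in APP/PS1+N-AS (n = 3). Its log2 fold change of APP/PS1+N-AS against APP/PS1 was -1.48 (SE 0.46, edgeR unadjusted p = 0.00815, adjusted p = 0.494), and every injected library lay below every APP/PS1 library. Tlr12, which binds profilin of parasites, was at 1.47, 2.39 and 1.73 CPM in the same order and passed no test. Tlr11 was removed by the filter on low counts, at 0 to 10 reads per library.

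With group means removed, the genes of the set varied together to different degrees over the 10 libraries, which share their depth and cell composition. The closest pairs were Tlr2 with Tlr9 (r = 0.93), Tlr2 with Cd14 (r = 0.93) and Tlr9 with Cd14 (r = 0.89), all of which were lowest in APP/PS1+N-AS library 3 within that group. Tlr3 and Tlr8 had an r of 0.77 and Tlr4 and Tlr8 one of 0.86, while Tlr1 and Cd14 had one of -0.62. Among all genes tested, those most like Tlr2 by this measure were Sh3pxd2a (r = 0.98), Tgif2 and Arf4. Lair1, an inhibitory receptor of immune cells, was most like Tlr7 (r = 0.98), followed by Hpgds and Eif2s3x. Bcl10, a signalling protein upstream of NF-kB, was most like Cd14 (r = 0.97). Sfxn5 was most like Tlr3 (r = 0.98). With 10 libraries and 18727 genes such values are a description and were given no test. Libraries within each transgenic group also differed in sex-linked reads, and the part of this in the r values was not tested.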
